A study of Mus musculus with 65 samples.

Results

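The p2 progenitors of the ventral neural tube were followed from day 5 to day 6 of mouse embryonic stem cell differentiation by RNA sequencing. The libraries were chosen by their labels alone, as those of cells labelled p2 on these days, and there were 12 of the 65 RNA libraries in the series. Each day held 3 libraries at 10 nM and 3 at 100 nM SAG, the Smoothened agonist, by which the Sonic hedgehog (Shh) pathway was switched on. All cells came from the HM1 mouse embryonic stem cell line, grown with LIF on feeder cells that were removed by plating. Every group passed through bFGF and LGK, then through bFGF, the Wnt pathway agonist CHIR99021 and the inhibitors SB-431542 and DMH1, and was kept from day 3 in 100 nM retinoic acid (RA) with its dose of SAG. Cells were fixed, stained for transcription factors and sorted, and p2 were the cells positive for SOX2, PAX6 and NKX6.1 and negative for OLIG2 and NKX2.2. The comparison groups were p0-1 cells at 0 and 10 nM SAG (12 libraries on these days) and pMN cells at 100 and 500 nM SAG (11 libraries), made from the same line in the same media. Replicates were independent differentiations of this 1 line, so the spread covers cultures and not animals. The cells were cultured without the embryo's other tissues.

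In the embryo, p2 progenitors lie between the p1 and pMN domains and give rise to V2 interneurons, of which the V2b class carries Gata2 and Gata3. Retinoic acid made by the somites acts on neural progenitors through nuclear receptors, promotes their exit from the caudal stem zone and their neuronal differentiation, and is cleared by enzymes of the CYP26 family. Progenitors in this period change with time as well as with position, as neurogenesis proceeds and the competence to make glia is acquired.

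Between day 5 and day 6 few genes changed past the threshold in p2 cells, and both their number and their direction depended on the analysis. The values are reads per gene divided by 1 size factor per library and are called normalized reads here. A gene was called changed at an adjusted p below 0.01 and over 2-fold, in limma's moderated test on log2(value + 1) with Benjamini-Hochberg adjustment over 13964 genes. There were 21 called genes, or 0.15% of those tested, with 5 higher (0.0358%) and 16 lower (0.115%) on day 6. After quantile normalization the split was 9 higher and 15 lower, with a pseudocount of 10 it was 6 and 4, and with the number of genes detected as a covariate it was 8 and 7. The count was 1 in edgeR and 724 in DESeq2. At an adjusted p below 0.05 and over 2-fold, 13 genes were higher (0.0931%) and 51 lower (0.365%). At an unadjusted p below 0.05, 403 genes were higher (2.89%) and 1166 lower (8.35%). The 6 day 6 libraries all lay above the 6 day 5 libraries for 53 genes (0.38%) and all lay below them for 59 genes (0.423%). The median log2 change over all tested genes was -0.15 and the median standard error (SE) was 0.83, so that changes of lowly expressed genes were measured coarsely. With both day 6 libraries with the fewest detected genes left out, the median log2 change was 0.0.

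**Figure D1:**
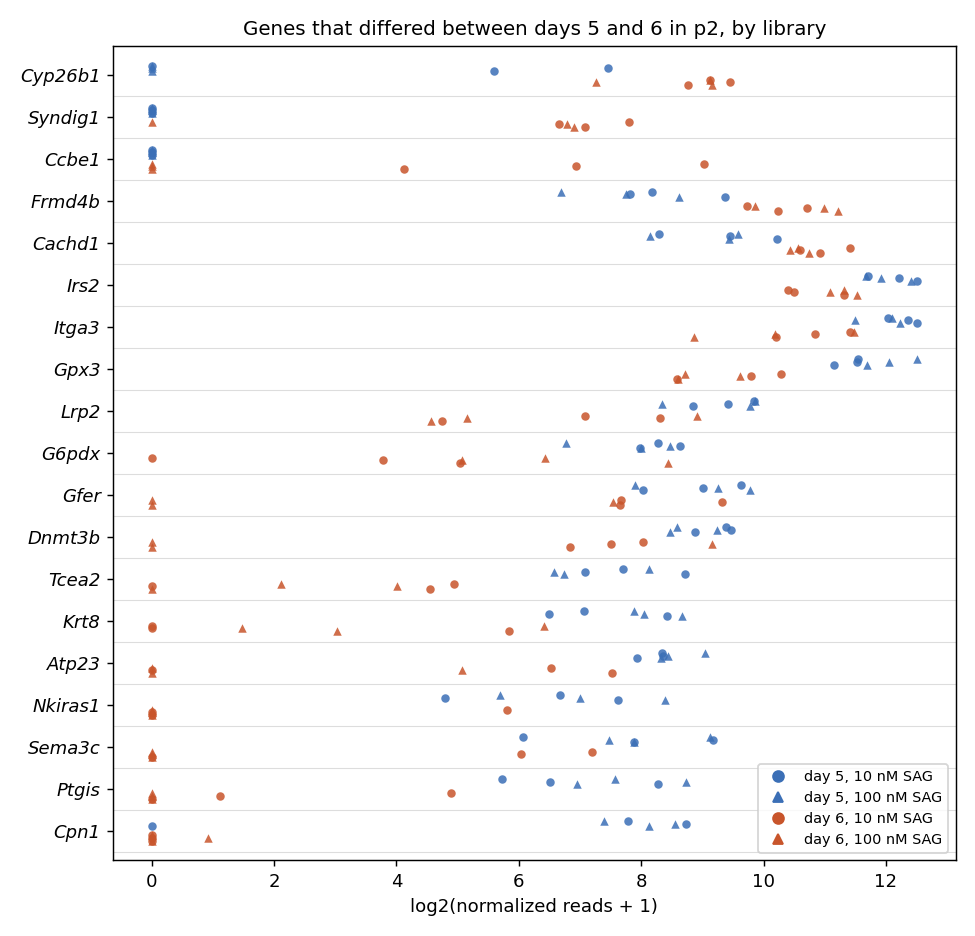
Level of the called genes named in the text in the 12 p2 libraries, as log2(normalized reads + 1) on the horizontal axis, with 1 point a library, blue for day 5 and orange for day 6, circles for 10 nM and triangles for 100 nM SAG. Gpx3 lies lower in every day 6 library than in any day 5 library, and Cachd1 and Frmd4b lie higher.

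The libraries held 7808243 to 12228329 reads in genes on day 5 and 8229131 to 10818555 on day 6, and no pair of them held identical values. Day 5 libraries detected 12548 to 13065 genes. On day 6 a pair of 100 nM libraries stood apart, with 11118 genes detected in replicate 1 and 10541 in replicate 3, against 12489 to 13082 in the other 4. Of the 16 genes called lower, 9 were at 0 in each of these low-detection libraries, against 4 to 6 in each of the others of day 6. Without both libraries 15 genes were called, 3 higher and 12 lower, and of the 21 called genes 5 were still called, namely G6pdx, Gpx3, Krt8, Lrp2 and Syndig1. The part of detection in the other calls was not tested.

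The transcripts of the proteins used for sorting did not pass the test between days. Sox2 had a median of 2225 normalized reads on day 5 and 1410 on day 6 (log2 change -0.53 ± 0.29 SE, n = 6 libraries a day throughout). Pax6 had medians of 3410 and 4338 normalized reads, and its exons overlap those of Elp4 on the opposite strand. Nkx6-1, which separates p2 from p0-1, had medians of 291 and 418 normalized reads, and its median in p0-1 cells on day 6 was 0. Nkx2-2, the p3 determinant, stayed at 5.54 normalized reads or less in all 12 libraries, with 0 in every day 6 library. Olig2, the pMN determinant whose protein was selected against, ranged from 0 to 549 normalized reads on day 5 and from 87.1 to 1452 on day 6, with a log2 change of 2.61 ± 1.12 (SE) that was not called (adjusted p = 0.343). The 3 day 6 libraries at 100 nM held 771 to 1452 normalized reads of Olig2, below the pMN median of 4442 on that day. Irx3, a transcription factor of p2 and more dorsal domains, had medians of 1750 and 1302 normalized reads.

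Markers of V2 neurons and of their precursors were low on both days. Foxn4, which acts in p2 cells upstream of V2 diversification, had a median of 16.4 normalized reads on day 5 and 228 on day 6, with a log2 change of 2.69 ± 1.4 (SE, adjusted p = 0.472). Gata3 had medians of 2.29 and 42.0 normalized reads, and Gata2 of 0 and 50.6. Lhx3, shared by V2a and motor neurons, had medians of 1.83 and 90.8 normalized reads (adjusted p = 0.397). Of 19 tested p2 and V2 markers none was called in limma, and their median log2 change was 0.04. At an unadjusted p below 0.05, 1 was higher and 2 were lower, against 2.89% and 8.35% of all genes. Dbx1, which marks p0 cells, had medians of 68.3 and 1.08 normalized reads in p2 cells and 2948 in p0-1 cells on day 6. The p2 libraries at 10 nM held 134 to 430 normalized reads of Dbx1 on day 5 and 1.06 to 148 on day 6. At 100 nM no p2 library of either day held over 2.77. Isl1, a motor neuron factor, was at 0 to 8.68 normalized reads on day 5 and 0 to 131 on day 6, which missed both thresholds (adjusted p = 0.0646). Nkx2-9, a gene of the most ventral progenitors, had medians of 23.2 and 0 normalized reads.

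Among the genes that take up, bind and clear retinoids, 1 of 17 tested was called, Cyp26b1, and the median log2 change was 0.0. Cyp26b1 encodes a cytochrome P450 that degrades RA and lies at chr6:84571414-84593908 (mm10). On day 5 it ranged from 0 to 175 normalized reads with a median of 0, and on day 6 from 152 to 700 with a median of 555. The groups overlapped only through 10 nM replicate 2 of day 5, which lay above the lowest day 6 library, and all 3 day 5 libraries at 100 nM were at 0. Cyp26b1 rose by 6.64 ± 1.19 (SE) on the log2(value + 1) scale (adjusted p = 0.00558, limma). A change from a level of 0 depends on the pseudocount, and edgeR's quasi-likelihood test on the recovered reads gave a log2 change of 7.34 with an adjusted p of 0.119. Without both low-detection libraries the limma adjusted p was 0.0608. In the 3 p2 libraries of day 4, 1 at 10 nM and 2 at 100 nM, it was at 0.

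Stra6, the membrane receptor through which cells take up retinol from its carrier in blood, lies at chr9:58129088-58153997. It held 53.1 to 293 normalized reads on day 5 with a median of 174, and had no read in any of the 6 day 6 libraries. Stra6 had a day 5 mean of 165.2 normalized reads (standard deviation 84.07), or 50.2 times the day 6 floor of 3 reads per library. Its log2 change of -7.19 ± 1.53 (SE) passed the 0.05 but not the 0.01 threshold (adjusted p = 0.0112, limma). Day 4 values were 411 to 812 normalized reads, above all day 5 values.

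Crabp2 and Crabp1 encode the cytoplasmic RA-binding proteins, and Crabp2 carries RA to its nuclear receptors. Crabp2, at chr3:87948693-87953372, was among the abundant transcripts, with 8612 to 10260 normalized reads on day 5 and 4931 to 6126 on day 6. It was lower in all 6 day 6 libraries and fell by 0.75 ± 0.15 (SE) on the log2 scale (adjusted p = 0.00741, limma), which is under 2-fold. Crabp1, at chr9:54764748-54773110, went from 2973 to 5654 normalized reads on day 5 to 1052 to 2851 on day 6. Its groups did not overlap either, yet the log2 change of -1.19 ± 0.39 (SE) did not pass (adjusted p = 0.166).

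Receptors and the remaining enzymes showed smaller or more variable differences. Rarb, an RA receptor gene that is itself induced by RA, had medians of 1533 and 1423 normalized reads on days 5 and 6 and a log2 change of 0.03 ± 0.36 (SE). Dhrs3, which reduces retinaldehyde back to retinol, had medians of 307 and 1148 normalized reads (adjusted p = 0.343), and 5 of 6 day 6 libraries lay above the day 5 median. Cyp26a1, a related RA-degrading enzyme, was at 0 in 4 of 6 day 5 libraries and reached 430 normalized reads on day 6 (adjusted p = 0.706). Cyp26c1, another member of that family, was below the filter, with 48.7 normalized reads in 1 day 6 library and 0 in the others. Rdh10, which oxidizes retinol, had medians of 88.6 and 0 normalized reads. Of 17 tested genes in the RA list, 1 was called higher and none lower in limma, against 0.0358% and 0.115% of all genes. At the 0.05 threshold 2 were higher and 1 lower, against 0.0931% and 0.365%. On day 6, 1 lay wholly above and 3 wholly below, against 0.38% and 0.423%. The summed level of the list was 24050 to 26940 normalized reads on day 5 and 18970 to 23220 on day 6, without overlap. Crabp2 and Crabp1, both lower on day 6, make up a large part of this sum. Of the 17 tested genes 8 had a log2 change above 0 and 8 below, so the sum does not describe the list as a whole.

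**Figure D2:**
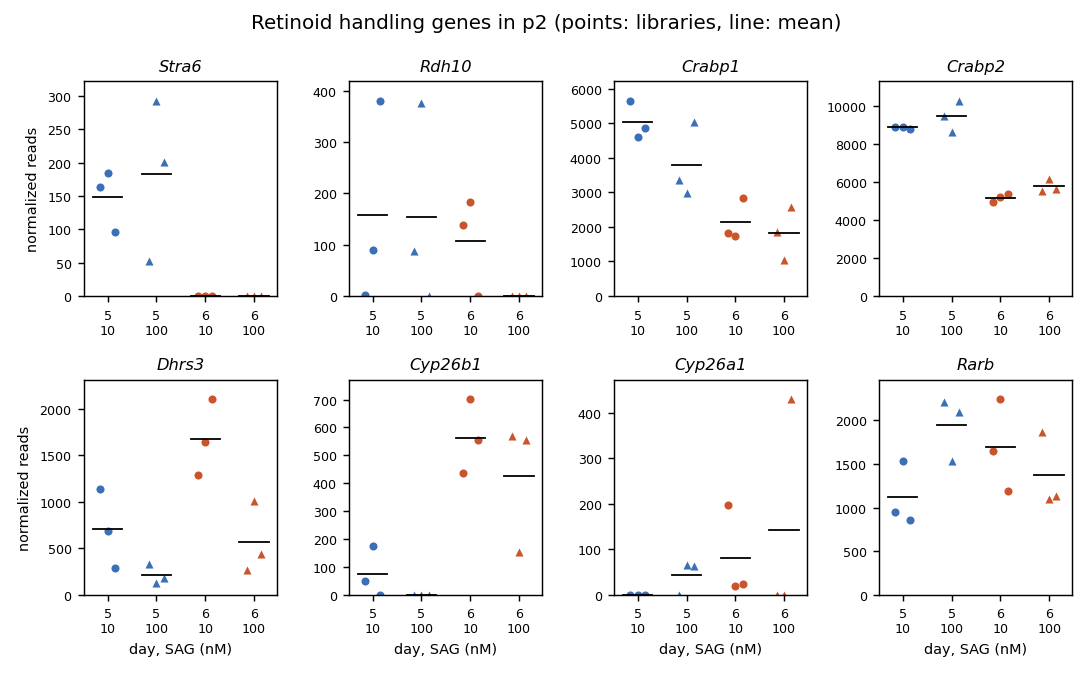
Normalized reads of RA handling genes in the 12 p2 libraries by day and SAG dose on linear axes that start at 0, with 1 point a library and a line at the mean of each group of 3. Cyp26b1 lies higher on day 6, Crabp2 and Crabp1 lie lower, and Stra6 is at 0 in all 6 libraries of day 6.

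The promoter windows of Rarb, Cyp26a1 and Cyp26b1 are shown because the first 2 hold a sequence of the kind that RA receptors bind and the window of the called gene does not. The windows run from 250 bases before to 50 after the start of transcription in RefSeq (GRCm38.p6) and are written 5′ to 3′ on the gene's strand. The motif searched was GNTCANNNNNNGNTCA, on both strands, and capitals mark its match. It was found in 283 of 32851 windows (0.861%). Of the 20 RA list genes 16 had a window, and 2 of these held a match. In Rarb (chr14:16575427-16575726, minus strand) the match ran from 52 to 37 bases before the start. In Cyp26a1 (chr19:37697558-37697857, plus strand) it ran from 32 to 17 bases before the start, on the opposite strand. The Cyp26b1 window (chr6:84593761-84594060, minus strand) held no match, which says only that these letters were not in this window.
Rarb: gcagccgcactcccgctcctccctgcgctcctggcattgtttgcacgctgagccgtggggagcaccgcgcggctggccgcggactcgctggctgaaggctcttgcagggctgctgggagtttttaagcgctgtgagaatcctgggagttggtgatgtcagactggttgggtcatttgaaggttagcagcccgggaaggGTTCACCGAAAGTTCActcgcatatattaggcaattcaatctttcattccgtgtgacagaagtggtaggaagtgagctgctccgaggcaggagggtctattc
Cyp26a1: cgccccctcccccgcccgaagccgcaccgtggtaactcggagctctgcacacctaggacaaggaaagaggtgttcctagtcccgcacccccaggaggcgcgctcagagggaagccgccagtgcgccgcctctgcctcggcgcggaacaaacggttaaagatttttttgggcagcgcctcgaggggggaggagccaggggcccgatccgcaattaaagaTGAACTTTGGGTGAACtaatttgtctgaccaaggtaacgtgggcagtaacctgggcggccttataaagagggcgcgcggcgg
Cyp26b1: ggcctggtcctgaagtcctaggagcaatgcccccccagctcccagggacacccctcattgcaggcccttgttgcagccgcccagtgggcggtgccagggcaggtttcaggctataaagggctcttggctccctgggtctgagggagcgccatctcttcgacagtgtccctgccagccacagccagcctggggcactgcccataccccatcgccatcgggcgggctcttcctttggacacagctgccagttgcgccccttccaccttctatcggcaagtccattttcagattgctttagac

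Of the genes with a match, Rarb had medians of 1533 and 1423 normalized reads on days 5 and 6 and Cyp26a1 of 0 and 21.0, and neither was called. A match is a description of the sequence and was not tested for binding.

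Among the genes that fell, Gpx3 had the smallest adjusted p. Gpx3, a secreted glutathione peroxidase that reduces peroxides, lies at chr11:54902854-54910387. Like Itga3, Irs2 and Ccbe1 below, it was named after its values were seen, since it was not among the 12 largest changes per direction that were named by rule. It held 2284 to 5835 normalized reads on day 5, median 3138, and 384 to 1244 on day 6, median 602. Every day 6 library lay below every day 5 library, at both SAG doses, and the day 4 libraries were higher still at 8530 to 11870 normalized reads. Gpx3 fell by 2.48 ± 0.33 (SE) on the log2 scale (adjusted p = 1.99e-05, limma). It was also the 1 gene called by edgeR's quasi-likelihood test (log2 change -2.43, adjusted p = 8.22e-05), and it was called in 24 of 26 alternative analyses. The other genes named as lower were called less steadily, G6pdx in 16 of 26 and Ptgis in 15. Nkiras1 was called in 11, Krt8 in 10, Atp23 in 9, Itga3 and Lrp2 in 8, Cpn1, Gfer and Sema3c in 7, Irs2 in 6, and Dnmt3b and Tcea2 in 5.

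Other genes of redox and mitochondrial function were called lower with more variable values. G6pdx, the first enzyme of the pentose phosphate pathway, had medians of 281 and 32.3 normalized reads on days 5 and 6 and fell by 3.23 ± 0.61 (SE) on the log2 scale. One day 6 library, 100 nM replicate 1, held 347 normalized reads and overlapped day 5. Gfer, a sulfhydryl oxidase of the mitochondrial intermembrane space, had medians of 563 and 193 normalized reads. Atp23, a mitochondrial protease, had medians of 325 and 16.4 normalized reads with no overlap. Without both day 6 libraries with the fewest detected genes, the adjusted p was 0.00324 for G6pdx, 0.759 for Gfer and 0.408 for Atp23.

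Genes of lipid and peptide processing and of insulin signaling were also called lower. Lrp2, at chr2:69424335-69586029, encodes megalin, an endocytic receptor of the LDL receptor family that also binds Shh. It held 324 to 930 normalized reads on day 5 and 22.7 to 481 on day 6, overlapping in part, and fell by 2.89 ± 0.60 (SE) on the log2 scale (adjusted p = 0.00906). Cpn1, at chr19:43956308-43986520, encodes the catalytic subunit of carboxypeptidase N. It was at 0 in 1 day 5 library and at 168 to 424 normalized reads in the other 5, and on day 6 it was at 0 in all libraries but one, which held 0.886. Its day 5 mean was 243.7 normalized reads (standard deviation 152.4), or 74.1 times the day 6 floor of 3 reads per library. This ratio of means leaves out the spread. The adjusted p of the Cpn1 change was 0.00816 (limma). Ptgis, the prostacyclin synthase, had medians of 156 and 0 normalized reads without overlap (log2 change -6.30). Irs2, an adaptor of the insulin receptor, had medians of 4318 and 2354 normalized reads without overlap and fell by 1.05 ± 0.22 (SE) on the log2 scale (adjusted p = 0.00996), and its exons overlap 9530052E02Rik on the opposite strand.

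Adhesion, epithelial and chromatin genes made up most of the remaining lower calls. Itga3, at chr11:95044475-95076811, encodes a laminin-binding integrin subunit. It ranged from 2887 to 5799 normalized reads on day 5 and from 466 to 2860 on day 6, without overlap, and fell by 1.62 ± 0.34 (SE) on the log2 scale (adjusted p = 0.00906, limma). Krt8, at chr15:101996711-102004342, encodes a keratin of simple epithelia. It held 88.9 to 404 normalized reads on day 5 and 0 to 83.9 on day 6 and fell by 4.97 ± 0.98 (SE) on the log2 scale (adjusted p = 0.00741). Its partner Krt18 had medians of 265 and 40.0 normalized reads and missed the threshold (adjusted p = 0.0568). Sema3c, a secreted guidance cue, had medians of 234 and 0 normalized reads and a log2 change of -5.73. Dnmt3b, at chr2:153649449-153687730, encodes a de novo DNA methyltransferase. It had medians of 536 and 147 normalized reads, and its log2 change was -3.75 ± 0.74 (SE, adjusted p = 0.00741) with all libraries but -0.70 (adjusted p = 0.931) without both low-detection libraries. Nkiras1, an inhibitor of NF-kB signaling, fell from a median of 114 to 0 normalized reads, and Tcea2, a transcription elongation factor, from 171 to 9.18. The exons of Nkiras1 overlap those of Ube2e1 on the opposite strand, and whether strand was used in counting is not given in the sources used here. Another lower call was a predicted gene model.

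A total of 5 genes were called higher, Cyp26b1 among them, and of these Cyp26b1 was called in 17 and Frmd4b in 15 of 26 alternative analyses, Cachd1 in 9 of 26, and Syndig1 and Ccbe1 in 8 of 25 each. Frmd4b, which encodes a FERM domain scaffold protein and lies at chr6:97286867-97617657, ranged from 103 to 658 normalized reads on day 5 and from 850 to 2368 on day 6. Cachd1, at chr4:100776679-101003748, encodes a protein related to the auxiliary subunits of voltage-gated calcium channels. It ranged from 281 to 1186 normalized reads on day 5 and from 1375 to 2714 on day 6. Neither gene overlapped between days, and they rose by 2.38 ± 0.46 and 1.59 ± 0.32 (SE) on the log2 scale (adjusted p = 0.00741 for both, limma). Syndig1, which encodes a transmembrane protein of synapses and lies at chr2:149830783-150004392, had no read on day 5 and a median of 115 normalized reads on day 6, with 1 day 6 library at 0. The mean on day 6 was 114.5 normalized reads (standard deviation 71.52), or 39.1 times the day 5 floor of 3 reads per library. The adjusted p of the Syndig1 change was 0.00906 (limma). Ccbe1, a secreted regulator of lymphatic growth, had reads on day 6 at 10 nM only, with 16.5, 121 and 523 normalized reads in its 3 libraries, and was at 0 in all the others. It was the 1 called gene of 21 whose change did not have the same sign at both SAG doses.

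Genes of the actin cytoskeleton and of growth control were among the 51 lower genes of the 0.05 threshold, and those given here were chosen after their values were seen. Myl12a, a regulatory light chain of myosin, ranged from 1108 to 1892 normalized reads on day 5 and from 561 to 866 on day 6, without overlap, and fell by 1.03 ± 0.25 (SE) on the log2 scale (adjusted p = 0.0306, limma). Tagln2, an actin-binding protein, had medians of 245 and 32.8 normalized reads, again without overlap (adjusted p = 0.0165). Tpm1, a tropomyosin, had medians of 2826 and 815 normalized reads (adjusted p = 0.0421), and Cnn2, a calponin, of 692 and 107 (adjusted p = 0.0471). Both of these had at least 1 day 6 library within the day 5 range. Ccn2, a matrix-associated protein, had medians of 1150 and 153 normalized reads (adjusted p = 0.0377), and its exons overlap Gm15270 on the opposite strand. Ajuba, a LIM protein of adhesion sites, had medians of 1811 and 777 normalized reads (adjusted p = 0.0373). For Ccn2 and Ajuba the lowest day 6 value came from 100 nM replicate 1, one of the low-detection libraries. Both genes also overlapped between days. Ccn2 reached 1158 normalized reads on day 6 in 10 nM replicate 3. Ajuba reached 2265 in 100 nM replicate 3, the other low-detection library.

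Ptn and Eif4ebp1 were lower at the same threshold. Ptn, a secreted heparin-binding growth factor, held 877 to 2285 normalized reads on day 5 and 0 to 835 on day 6, without overlap (log2 change -3.99 ± 0.91 SE, adjusted p = 0.0210). Day 4 values of Ptn were 6490 to 8169 normalized reads. Eif4ebp1, a repressor of cap-dependent translation, had medians of 3040 and 1826 normalized reads (adjusted p = 0.0188). Among the genes higher at this threshold, Syt11, a synaptotagmin, had 802 to 1401 normalized reads on day 5 and 1337 to 4074 on day 6 (adjusted p = 0.0232). S1pr1, a receptor for sphingosine 1-phosphate, had medians of 0.394 and 135 normalized reads (adjusted p = 0.0306), and 1 day 5 library held 230.

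Genes of neuronal differentiation were on average higher on day 6, although few passed alone. Neuronal genes had a median log2 change of 1.05 against -0.15 for all genes, with 20 of 27 above 0 against 5783 of all 13964. None was called and 1 was higher at the 0.05 threshold. The summed level of all 33 listed neuronal genes was 3001 to 8224 normalized reads on day 5 and 9118 to 15160 on day 6, without overlap. The gene past the 0.05 threshold was Gap43, a growth cone protein, which rose from a median of 147 to 764 normalized reads (log2 change 4.18 ± 1.04 SE, adjusted p = 0.0421, limma). Dcx, a microtubule protein of young neurons, lay above in every day 6 library with medians of 156 and 804 normalized reads (adjusted p = 0.471). Scg3, a secretory granule protein, did so too with medians of 134 and 626 (adjusted p = 0.470). Of the 27 tested neuronal genes these 2 lay wholly above, against 0.38% of all genes. Tubb3, whose protein was in the staining panel, had medians of 485 and 835 normalized reads and overlapped. In sorted bulk samples, more cells of a type and more RNA per cell cannot be told apart.

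The proneural factors, which commit progenitors to neurogenesis, had a median log2 change of 0.92. All 18 tested were above 0, against 5783 of all 13964 genes. Yet none was called in limma and 1 was higher at an unadjusted p below 0.05, namely Myt1 (adjusted p = 0.136). The share of all genes higher at that cutoff was 2.89%. Neurog2 had medians of 336 and 647 normalized reads (log2 change 0.88 ± 0.89 SE). The summed level of all 22 listed factors was 8570 to 19310 normalized reads on day 5 and 12920 to 20400 on day 6. The 10 nM replicate 1 of day 5 lay within the day 6 range. Of 25 Notch pathway genes none was called, and their median log2 change was 0.46, which was 0.04 without 100 nM replicate 3 of day 6. The ligand Dll1 had medians of 1726 and 3653 normalized reads and the receptor Notch1 of 946 and 1587 (adjusted p = 0.222 and 0.218), whereas the ligand Jag1 had medians of 1644 and 662 (adjusted p = 0.286). Hes5, the main Notch target in neural progenitors, had medians of 9125 and 9078 normalized reads.

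Axon guidance and adhesion genes had a median log2 change of 0.62, with 30 of 47 above 0 against 5783 of all 13964 genes. Sema3c was the single call in this list. At an unadjusted p below 0.05, 9 were higher and 2 lower, against 2.89% and 8.35% of all genes. Cntn2, an adhesion molecule of commissural and motor axons, had medians of 1.53 and 307 normalized reads, and Ncam1, a general neural adhesion molecule, of 2533 and 4613. Each had an adjusted p of 0.0568. Nnat, a gene of the early nervous system that was named after its values were seen, had 1618 to 2531 normalized reads on day 5 and 2876 to 5174 on day 6. It rose by 0.93 ± 0.18 (SE) on the log2 scale (adjusted p = 0.00741, limma), which is under 2-fold.

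**Figure D3:**
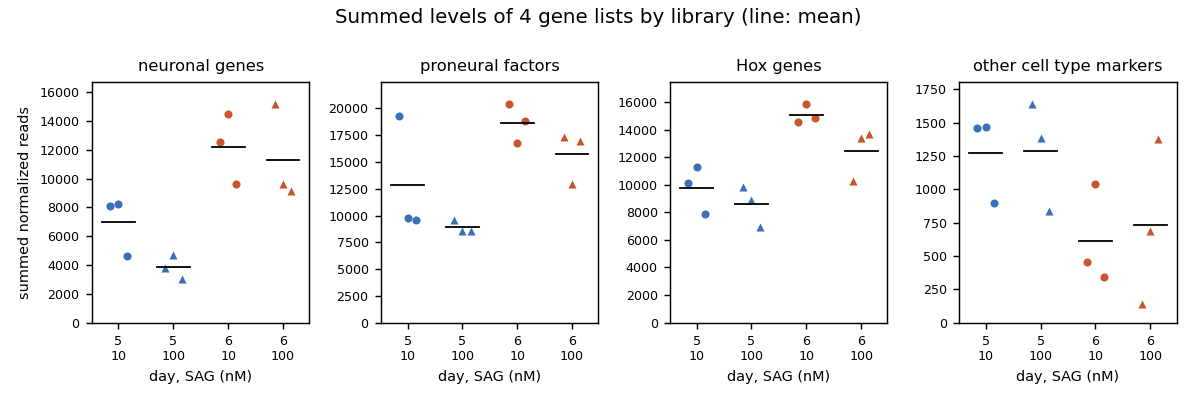
Summed normalized reads of 4 gene lists (neuronal, proneural, Hox and other cell types) in each of the 12 p2 libraries by day and SAG dose, with 1 point a library and a line at the mean of each group of 3. The neuronal sum is 3001 to 8224 on day 5 and 9118 to 15160 on day 6.

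Several genes of glycolysis were lower on day 6. Eno1 and Gapdh, enzymes of its energy-yielding steps, lay below in all 6 day 6 libraries. Gapdh (chr6:125161852-125166467) ranged from 8813 to 13370 normalized reads on day 5 and from 6918 to 8569 on day 6, and fell by 0.57 ± 0.11 (SE) on the log2 scale (adjusted p = 0.00747, limma). Eno1 (chr4:150237197-150248873) ranged from 8892 to 13630 and from 5374 to 7484 normalized reads, and fell by 0.71 ± 0.14 (SE, adjusted p = 0.00819). With these included, 6 genes were higher (0.043%) and 20 lower (0.143%) at an adjusted p below 0.01 at any fold, the others being Crabp2, Nnat and Eef1g, a translation elongation factor subunit. Ldha, which converts pyruvate to lactate, had medians of 2694 and 1102 normalized reads and fell by 1.61 ± 0.35 (SE) on the log2 scale (adjusted p = 0.0138, past the 0.05 threshold only). Over the 39 tested genes of the metabolism list the median log2 change was -0.38, with none called. It was -0.07 at 10 nM and -0.46 at 100 nM, the dose of both low-detection libraries, against -0.0 and -0.2 for all genes. At an unadjusted p below 0.05, 1 was higher and 11 lower, against 2.89% and 8.35% of all genes. On day 6, 2 lay wholly below, against 0.423% of all genes. Aldoa, Pgk1 and Pkm had log2 changes of -1.06, -0.77 and -0.47, none called. Slc2a1, a glucose transporter, had medians of 8602 and 8595 normalized reads.

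Cell cycle genes had a median log2 change of -0.11, near that of all genes. At an unadjusted p below 0.05, 7 of 43 were lower and none higher, against 8.35% and 2.89% of all genes. Ccnd2, a cyclin of G1 phase, had 19300 to 29290 normalized reads on day 5 and 12420 to 19530 on day 6, with a log2 change of -0.60 ± 0.14 (SE, adjusted p = 0.0301), under 2-fold. Of 35 temporal factors, which change in progenitors with developmental time, none was called and the median log2 change was 0.04. Lin28a, an RNA-binding protein of early progenitors, had medians of 705 and 304 normalized reads (adjusted p = 0.155). Gliogenic genes had a median of 0.29, and Sox9, a factor of glial competence, had medians of 199 and 607 normalized reads (adjusted p = 0.429). Fabp7, a radial glia gene, had medians of 2.84 and 159 normalized reads (adjusted p = 0.169), while Nfia had 69.7 and 80.8.

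The Hox genes had a median log2 change of 0.62, with 16 of 21 above 0 against 5783 of all 13964 genes. None was called in limma. Hoxb4, Hoxb5 and Hoxa4, which pattern the hindbrain and upper spinal cord, lay above in every day 6 library. Their medians were 411 and 829, 224 and 762, and 84.2 and 364 normalized reads. The adjusted p of Hoxb5 was 0.411. Of the 21 tested Hox genes these 3 lay wholly above, against 0.38% of all genes.

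Of the signaling lists, the Shh list had a median log2 change of -0.69 in limma and 0.08 in DESeq2, against -0.15 for all genes in limma. In limma, 4 of its 22 tested genes were lower at an unadjusted p below 0.05, against 8.35% of all genes, and Lrp2 was the single call. Smo, the receptor component on which SAG acts, had medians of 2544 and 1554 normalized reads (adjusted p = 0.169). The FGF list had a median of 0.11, the Wnt and BMP list -0.03, the Hes, Id and Sox list -0.30, the extracellular matrix list -0.44 and the immediate early and stress list -0.69. Without 100 nM replicate 1 of day 6 the extracellular matrix median was -0.07, and without both low-detection libraries the stress median was -0.24. None of the FGF, Wnt and BMP, Hes, Id and Sox, matrix and stress lists held a called gene in limma, and none held a gene at the 0.05 threshold.

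**Figure D4:**
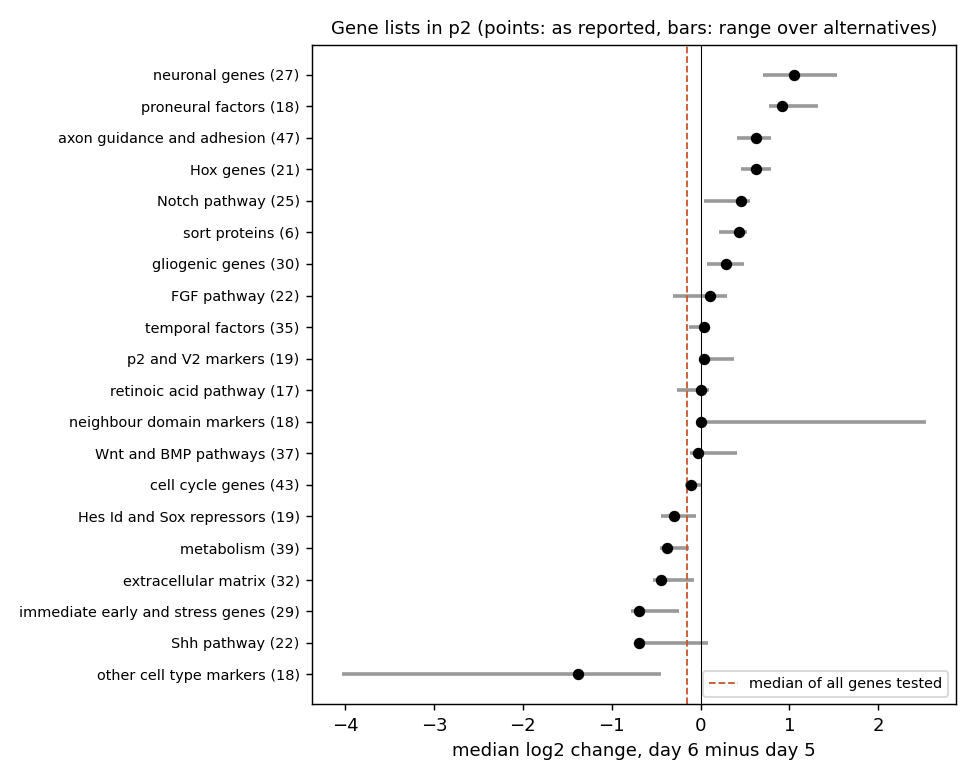
Median log2 change from day 5 to day 6 of each gene list in p2 cells (points, with the number of genes tested in brackets), with gray bars for the range over the alternative analyses and a dashed line at the median of all 13964 genes tested. Neuronal genes have the highest median, 1.05, and markers of other cell types the lowest, -1.38.

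Markers of other cell types were mostly low in these sorts and on average lower on day 6. The list of 18 tested genes, covering mesodermal, neural crest, pluripotent, endothelial, mesenchymal and epithelial cells, had a median log2 change of -1.38. Of these, 4 were above 0 and 13 below, against 5783 and 8057 of all 13964 genes, and 1 was called. At an unadjusted p below 0.05, 6 were lower and none higher, against 8.35% and 2.89% of all genes. The summed level of all 28 listed genes was 837 to 1638 normalized reads on day 5 and 140 to 1379 on day 6, overlapping. The called gene was Krt8. T, of early mesoderm, and Sox10, of neural crest, had no read in any of the 12 libraries, and Pou5f1, of pluripotent cells, was at 10.5 normalized reads or less. Col1a2, a collagen of mesenchyme, had medians of 125 and 0 normalized reads (adjusted p = 0.122), and Epcam, of epithelial and pluripotent cells, of 69.2 and 0 (adjusted p = 0.321). Other members went the other way in single libraries. Col3a1 was at 0 on day 5 and held 178 and 202 normalized reads on day 6, in replicate 2 at 100 and at 10 nM. Cdh1 reached 208 normalized reads on day 5 and 688 on day 6, in 100 nM replicate 3. The summed level of all 29 listed markers of neighboring domains was 366 to 1010 normalized reads on day 5 and 737 to 3381 on day 6, overlapping. At 100 nM it was 366 to 1010 and then 1248 to 3381 normalized reads, without overlap. At an unadjusted p below 0.05, 4 of the 18 tested were higher (Isl1, Lhx3, Olig1 and Olig2) and none lower, against 2.89% and 8.35% of all genes. None was called. The median log2 change of the 18 was 0.0, and 2.54 among those with a mean of at least 100. The part of either list in the changes above was not tested.

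The change from day 5 to day 6 was next compared between SAG doses and with that of the flanking progenitors. The changes in p0-1 and pMN share no libraries with that in p2, whereas the same 12 p2 libraries enter each of the comparisons that follow. The changes are not independent for that reason alone. The paper sorted several cell types from each SAG condition, so p2 cells may share cultures with p0-1 cells at 10 nM and with pMN cells at 100 nM. All groups also share the estimate of spread in the fit. In limma no gene had a change that differed between 100 and 10 nM, with 923 genes at an unadjusted p below 0.05, and edgeR called 0 and DESeq2 586. The median SE of that difference was 1.67 on the log2 scale, so only very large differences could have been called. Ccbe1 had the smallest adjusted p (0.113), with reads at 10 nM alone.

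Against p0-1, no gene's change differed in limma or edgeR, with 888 at an unadjusted p below 0.05 in limma and 532 called by DESeq2. Against pMN the numbers were 0 in both, 738 and 491. The p0-1 cells themselves had 9 called genes between days (0.0645%) and the pMN cells 4 (0.0286%). The list medians that were raised in p2 were raised there too. Neuronal genes had 1.88 in p0-1 and 1.43 in pMN, proneural factors 1.46 and 1.4, Hox genes 0.8 and 0.66, and axon guidance genes 0.48 and 0.84. Markers of other cell types, at -1.38 in p2, had 0.02 and 0.03. Differences of list medians between cell types were not tested. The 21 genes were chosen by their change in p2, so what follows describes them and supports no difference between cell types. The change had the same sign in p0-1 for 16 and in pMN for 11. Gpx3 had a log2 change of -1.98 in p0-1 (adjusted p = 0.00206) and -1.67 in pMN (adjusted p = 0.0249). Cyp26b1 had 6.27 in p0-1 (adjusted p = 0.0055) and 5.41 in pMN (adjusted p = 0.0802). Cpn1 had -7.10 in p0-1 (adjusted p = 0.00522), and Itga3 had -2.20 in pMN (adjusted p = 0.00192). Stra6, with p2 medians of 174 and 0 normalized reads, had medians of 237 and 75.5 in p0-1 and of 143 and 8.64 in pMN, and neither difference of change was called (adjusted p = 0.685 and 0.924). The difference of change for Cyp26b1 was 0.37 ± 1.69 (SE) against p0-1 and 1.22 ± 1.74 (SE) against pMN, which does not show that the changes were alike. Syndig1 rose in p2 but had medians of 0 on both days in pMN, and the difference of 5.88 ± 1.78 (SE) was not called (adjusted p = 0.655).

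**Figure D5:**
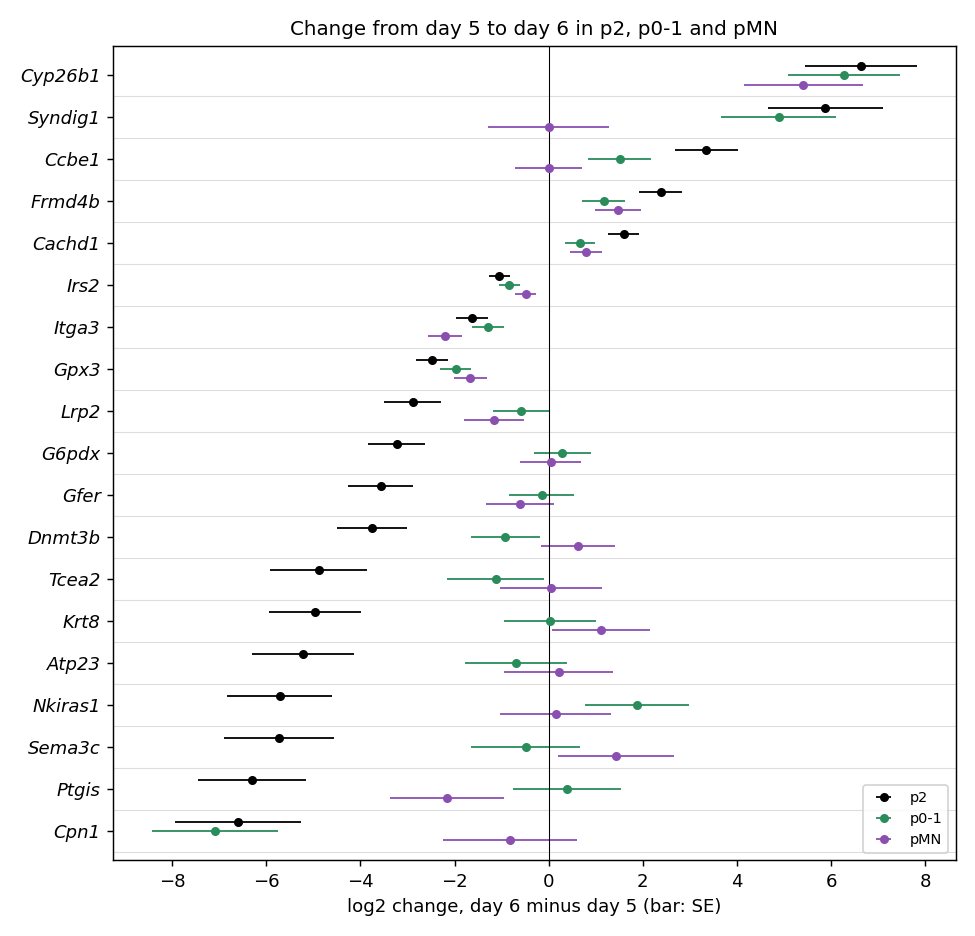
Log2 change from day 5 to day 6 of the genes called in p2 and named in the text, in p2 (black), p0-1 (green) and pMN (purple) cells, with bars of 1 SE. Gpx3 lies below 0 and Cyp26b1 above 0 in all 3 cell types.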

How the data were processed

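Bulk RNA-seq was made from sorted, fixed cells with the SMART-Seq HT and Nextera XT kits and ERCC spike-ins. Per the labels and methods, the authors aligned reads with STAR in the nf-core RNA-seq pipeline to mm10 with refGene and ERCC sequences, counted with featureCounts ignoring duplicates, removed libraries that failed quality control and divided the counts by 1 size factor per library. The deposited values are therefore a signal scale of scaled counts. All 834400 values above 0 were whole multiples of what 1 read is worth (100.0%, tolerance 0.01), so reads were recovered for edgeR and DESeq2. Strand use in counting is not given in the sources used here.

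Genes with a mean of at least 10 over 65 libraries were tested (13964 of 25239) with limma 3.58.1 in R 4.3.3 on log2(value + 1), with 25 group means (day, SAG dose and cell type) and an intensity trend. The p2 change is the mean of the changes at 10 and 100 nM, which keeps SAG as a block. For low genes, fold changes on this scale depend on the pseudocount. They can understate the change, or overstate it where some libraries are at 0. The log2 change of Cyp26b1 ran from 4.4 to 14.59 over 26 alternatives. Calls needed a Benjamini-Hochberg adjusted p below 0.01 and over 2-fold, with 0.05 as an alternative. Alternatives were edgeR 4.0.16, DESeq2 1.42.0, other pseudocounts, filters and scalings, a replicate block and leaving out libraries. With 7808243 to 12228329 reads per p2 library, floors of 3 reads cover counting error only. Genes were named by rule: up to 12 called genes per direction with the largest log2 change, a mean of at least 100 on 1 day and the same sign at both SAG doses, called list members, or up to 4 list members where few were called, and fixed sort and domain markers. Notch, Hox, glycolysis and gliogenic genes named beyond this, with Scg3, Dcx, Nnat and Eef1g, were chosen after their values were seen. The members and lists were chosen with earlier results of these data known. The scripts were tested on simulated data. Promoter windows are from RefSeq (GRCm38.p6). Some genes are not reported here.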

Additional observations from a re-analysis of the deposited data

Results flagged for a closer look

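Samples far from the other 5 of their day were looked for in 83 groups of 6 libraries, over called genes and summed lists, by the gap to the nearest library relative to the range, and 11 were found. Chance gives about 1 in 20.

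Summed proneural factors were highest on day 5 in 10 nM replicate 1, at 19310 normalized reads against 9748 in the nearest library. The summed Hes, Id and Sox list was lowest on day 6 in 100 nM replicate 2, at 16060 against 20600. Summed metabolism genes were highest on day 6 in 100 nM replicate 3, one of the low-detection libraries, at 93060 against 82470.

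The other 8 were single called genes in normalized reads. Atp23 was highest on day 5 in 100 nM replicate 3 at 528, against 346 next to it, and Cyp26b1 in 10 nM replicate 2 at 175, against 47.3. On day 6, Ccbe1 was highest in 10 nM replicate 3 at 523 (next 121), Gfer in 10 nM replicate 2 at 642 (next 203) and G6pdx in 100 nM replicate 1 at 347 (next 85.02). Nkiras1 reached 55.2 and Ptgis 28.7 (next 0 and 1.16), both in 10 nM replicate 3. Cpn1 reached 0.886, which is 1 read, in 100 nM replicate 2 with the others at 0.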

How the results depend on the processing

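The count of 21 called genes in p2 depended on the analysis. It was 10 with a pseudocount of 10, 10 without a filter on low values, 9 without the intensity trend, 2 with only the 12 libraries, 1 in edgeR, 724 in DESeq2 and 64 at an adjusted p below 0.05. Leaving out 1 library at a time gave 1 to 103 genes. The count was 1 without 100 nM replicate 2 or 3 or 10 nM replicate 3 of day 5, and 103 without 100 nM replicate 2 of day 6, and every library but 100 nM replicate 3 of day 6 (31 without it) moved it by over 1.5 times. No called gene changed sign under the 26 alternatives. Same-numbered samples of the 2 days had correlations of 0.0143 to 0.043, all above those of other pairs, -0.0406 to 0.0109. Pairing by replicate number was thus weak but present, and the main fit held no replicate block. With a replicate block the count was 29 in all 65 libraries and 0 in the 12 libraries alone. The splits were 6 higher and 4 lower with a pseudocount of 10, 8 and 7 with genes detected as a covariate, and 1 and 16 with array weights.

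The difference between SAG doses gave 586 genes in DESeq2, 4 without both low-detection libraries, and 0 to 47 leaving out 1 library, the highest without 100 nM replicate 2 of day 6. Against p0-1 these were 532 in DESeq2 and 0 to 12, and against pMN 491, 0 to 7 and 1 without a filter, the highest without the same library. Rxrb, an RA co-receptor with a log2 change of -1.06, was at 0.04 without both low-detection libraries. The list medians that changed sign were those of the temporal, FGF, and Wnt and BMP lists (10 of 26 alternatives each), the Shh and p2 lists (2 each) and the cell cycle list (1). The causes were not tested.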
